A study of Mus musculus with 9 samples.

Results

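Branched-chain amino acid breakdown is described here through 10 genes, chosen by symbol from knowledge of the pathway: Bcat2, Bckdha, Bckdhb, Dbt, Ivd, Acadsb, Acad8, Mccc1, Pcca and Aldh6a1. They were chosen with earlier results of these data known, and other genes of the pathway are given separately below. All 10 were measured, of 18193 genes with a probe set of their own on the array. Each gene was read from its brightest single-gene probe set over all arrays, and 4 of the 10 had a further probe set that served as a check. No low-value filter was applied, so no member was lost.

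RNA came from 3T3-L1 cells, mouse fibroblasts that turn into fat cells under a hormone cocktail, and was hybridised to 9 single-colour arrays. There were 3 groups of 3 arrays: PPAR gamma siRNA adipocytes, control siRNA adipocytes and preadipocytes. PPAR gamma siRNA adipocytes were fat cells that, 14 days after induction, were detached with trypsin and collagenase, electroporated with siRNA against the nuclear receptor PPAR gamma and reseeded. Control siRNA adipocytes were treated alike with a non-targeting oligonucleotide, and either oligonucleotide was used at 2 or 3 nmol. Induction had begun 2 days after confluence, with dexamethasone (1 µM), IBMX (0.5 mM) and insulin (10 µg/ml) for 2 days and insulin alone for a further 2 days. For preadipocytes the labels give no siRNA or electroporation, so differentiation and transfection cannot be told apart when adipocytes are set against them. The time of harvest after transfection was not given. The series calls the replicates technical, so p-values here speak for array spread alone, which may be technical, and the small number of arrays limits the precision.

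Leucine, isoleucine and valine are broken down in mitochondria by a shared beginning and separate ends. A transaminase removes the amino group, and the branched-chain keto acid dehydrogenase complex then commits the carbon skeleton to oxidation. Each of the resulting acyl-CoA esters has its own dehydrogenase, after which leucine yields acetyl-CoA and acetoacetate, valine yields propionyl-CoA, and isoleucine yields both acetyl-CoA and propionyl-CoA. In fat cells the pathway is known as a source of acetyl-CoA for fatty acid synthesis, and of the propionyl-CoA that primes odd-chain fatty acids. PPAR gamma drives adipocyte differentiation by binding DNA together with RXR, at direct repeats of a hexamer.

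Promoter sequences are shown as description, since the siRNA was aimed at a DNA-binding receptor. Any part of these promoters in the changes of the members was not tested. Of the 10 genes, all but Dbt (9 genes) had promoters in the RefSeq table (GRCm38.p6), as 13 entries, since several genes have more than 1 start. The 250 bases before each start were searched on both strands for AGGTCA, the nuclear receptor hexamer, for a direct repeat of that hexamer spaced by any 1 base, for CCAAT, and for the GC-rich motif GGGCGG. The hexamer lay in 3 of the 13 entries, 1 each of Bckdhb, Pcca and Aldh6a1, and in 14.0% of all 32851 promoters. The direct repeat, counted only as exact copies, lay in 0 of the 13 and in 0.0335% of all promoters. At so small a share, its absence from 13 entries cannot set these genes apart. CCAAT lay in 8 of the 13 entries, from 6 genes, and in 33.8% of all promoters. The GC-rich motif lay in 5 of the 13 and 32.7% of all. At least 3 copies of CCAAT were found in the entries of Ivd (4 copies), Mccc1 (3 copies) and Aldh6a1 (4 copies), a density reached by 2.79% of all promoters. At least 3 copies of the GC-rich motif also lay in 3 of the 13 entries, and in 8.47% of all promoters. Matches are descriptions of letters in these windows, and no binding was measured. The 5 promoters below are those of the gene lowered most by the siRNA (Bcat2, first of its 2 listed starts), of Bckdhb (first of 2 starts), which holds a hexamer, and of the 3 with several CCAAT. The annotated Bcat2 gene spans chr7:45568967-45589710, and both Bcat2 windows lie within it. The bases before the 5′ end of that span were therefore not searched. They run 5′ to 3′ along the strand of the gene, and capitals mark the hexamer or the CCAAT motif on either strand.
Bcat2, chr7:45569903-45570152, plus strand: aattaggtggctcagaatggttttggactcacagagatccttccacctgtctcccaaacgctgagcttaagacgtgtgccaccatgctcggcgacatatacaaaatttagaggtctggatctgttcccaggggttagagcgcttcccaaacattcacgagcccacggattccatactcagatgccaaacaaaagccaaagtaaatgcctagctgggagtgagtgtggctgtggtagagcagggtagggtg
Bckdhb, chr9:83924887-83925136, plus strand: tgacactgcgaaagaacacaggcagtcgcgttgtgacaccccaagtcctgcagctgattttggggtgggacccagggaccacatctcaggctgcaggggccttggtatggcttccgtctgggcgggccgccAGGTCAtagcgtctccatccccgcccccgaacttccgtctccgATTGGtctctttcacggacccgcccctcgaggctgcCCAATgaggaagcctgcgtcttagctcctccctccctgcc
Ivd, chr2:118861744-118861993, plus strand: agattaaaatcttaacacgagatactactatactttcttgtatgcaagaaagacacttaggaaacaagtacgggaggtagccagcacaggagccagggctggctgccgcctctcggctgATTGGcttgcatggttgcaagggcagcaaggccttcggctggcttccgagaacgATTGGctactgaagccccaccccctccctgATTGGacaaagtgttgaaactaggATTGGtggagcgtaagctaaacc
Mccc1, chr3:36000679-36000928, minus strand: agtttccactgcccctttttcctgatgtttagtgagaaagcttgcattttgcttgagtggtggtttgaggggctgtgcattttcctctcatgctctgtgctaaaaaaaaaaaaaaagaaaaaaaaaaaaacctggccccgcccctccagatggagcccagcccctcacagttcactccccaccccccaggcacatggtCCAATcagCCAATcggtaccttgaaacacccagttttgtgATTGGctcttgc
Aldh6a1, chr12:84451025-84451274, minus strand: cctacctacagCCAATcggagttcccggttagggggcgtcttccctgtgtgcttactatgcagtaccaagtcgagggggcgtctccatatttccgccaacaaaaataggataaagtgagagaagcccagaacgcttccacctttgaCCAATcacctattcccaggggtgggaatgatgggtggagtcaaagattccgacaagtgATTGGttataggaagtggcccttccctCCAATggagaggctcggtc

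Pparg, the target of the siRNA, was read first as a check on the labels. Its log2 level was 9.54, 9.58 and 9.64 in PPAR gamma siRNA adipocytes, 12.89, 12.82 and 12.65 in control siRNA adipocytes, and 8.35, 8.20 and 8.12 in preadipocytes. The 3 groups did not overlap. Of 7 fat cell markers measured, 6 rose in control siRNA adipocytes over preadipocytes, and the hormone gene Lep did not pass the test. Other cell type markers are given after the results.

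Setting PPAR gamma siRNA beside control siRNA asks what mature fat cells lose when the receptor is depleted. All 10 genes of branched-chain amino acid breakdown were lower after PPAR gamma siRNA, against 16.1% of all 18193 genes called lower and 19.9% called higher. The count was 9 in 9 of 19 other settings, in each of which Acadsb lost its call or, in 1, had no value (with a replicate block its adjusted p was 0.0506). In none of the 10 did the arrays of these groups overlap, which held in that direction for 21% of all genes. For 7 of the 10 the fall was at least 2-fold, a share of 4.61% among all genes. The members' median log2 change was -1.15, and that of all genes was -0.01. As the members were chosen with earlier results known, the shares of all genes are given as description and not as a test. Calls rest on limma's moderated test at an adjusted p under 0.05, with Benjamini-Hochberg adjustment over 45037 probe sets, and changes are log2 differences ± SE from 1 fit of all 9 arrays.

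Setting control siRNA adipocytes beside preadipocytes asks which genes mark the fat cell state. "In differentiation" below stands for this comparison, in which electroporation and reseeding differ too. Here all 10 were higher, each at least 2-fold, with 27.1% of all genes called higher, 24.7% called lower and 8.83% called higher by at least 2-fold. No arrays overlapped, as for 34% of all genes. The median log2 change was 2.24, and that of all genes was 0.09. Set against preadipocytes, PPAR gamma siRNA adipocytes were still higher in 9 of the 10 genes, 8 of them at least 2-fold (19.6% and 4.29% of all genes, with 16.9% called lower). In those 9 the arrays did not overlap, as for 28.8% of all genes. The exception was Bcat2. The median change in that comparison was 1.17, and 0.07 over all genes. The 3 comparisons share arrays in pairs, so their values stand side by side and do not support one another.

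**Figure D1:**
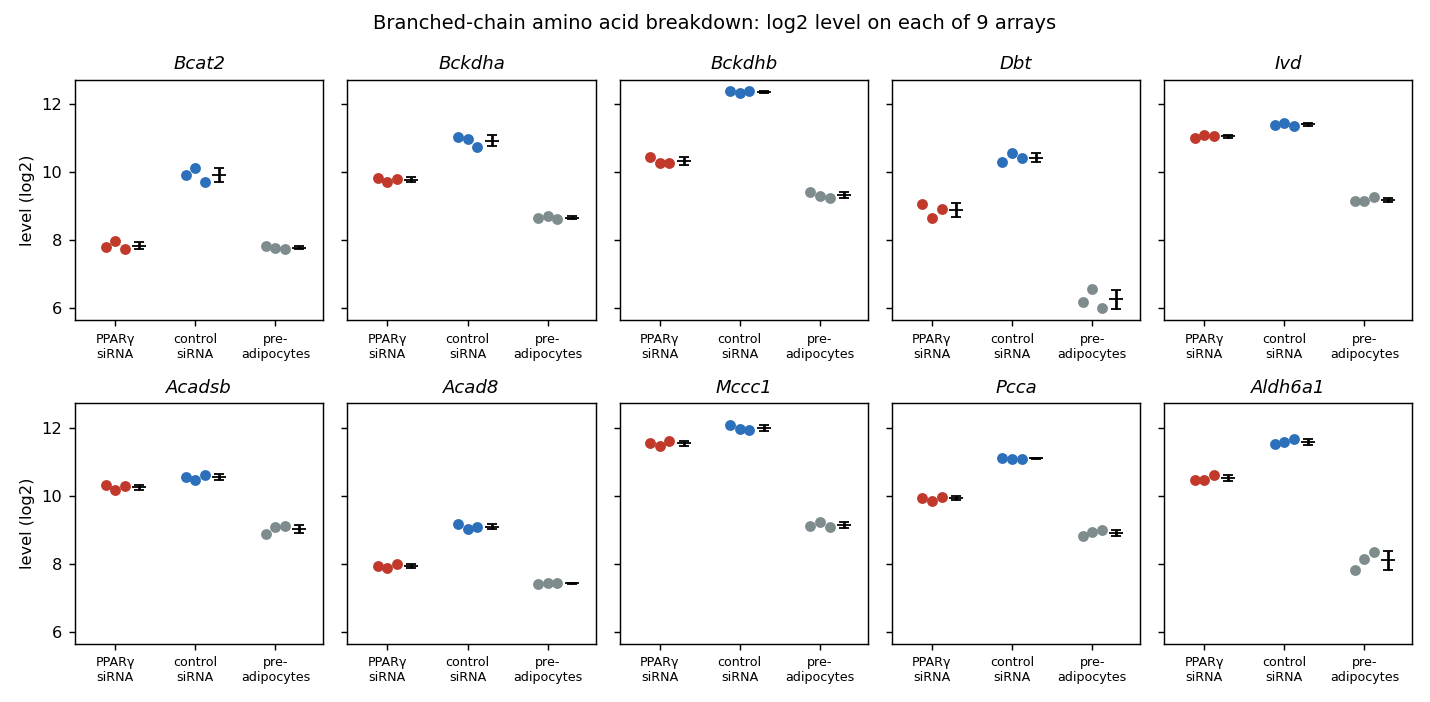
Log2 level (y axis) of each of the 10 genes on the 3 arrays of each group (x axis), with the group mean ± SD as a bar beside the points. Control siRNA adipocytes are highest in every panel, and PPAR gamma siRNA adipocytes lie between them and preadipocytes except for Bcat2, at 7.84 ± 0.11 against 7.78 ± 0.05 in preadipocytes. Heights are not comparable between genes.

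The first step belongs to Bcat2, the mitochondrial branched-chain aminotransferase. Its level was 7.81, 7.97 and 7.75 in PPAR gamma siRNA adipocytes, 9.91, 10.14 and 9.71 in control siRNA adipocytes, and 7.83, 7.77 and 7.73 in preadipocytes. The knockdown and preadipocyte arrays overlapped, and both lay below every control siRNA array. PPAR gamma siRNA lowered Bcat2 4.22-fold (log2 change -2.08 ± 0.11, adjusted p = 8.44e-08), the largest fall of the 10, and only 0.879% of all genes had a lower change. Control siRNA adipocytes were 4.41-fold above preadipocytes (2.14 ± 0.11, adjusted p = 1.80e-08). Against preadipocytes the difference was 0.06 ± 0.11 (95% interval -0.18 to 0.31, adjusted p = 0.722). A small remaining difference is not excluded, and the interval reflects array spread alone.

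The committed step is catalysed by a complex of 3 enzymes, whose first (E1, the decarboxylase) is built from the products of Bckdha and Bckdhb and whose core (E2, the transacylase) is the product of Dbt. Bckdha stood at 9.84, 9.70 and 9.79 with PPAR gamma siRNA, at 11.04, 10.99 and 10.74 with control siRNA, and at 8.66, 8.71 and 8.62 in preadipocytes. Bckdhb stood at 10.46, 10.26 and 10.28 with PPAR gamma siRNA, at 12.39, 12.33 and 12.39 with control siRNA, and at 9.42, 9.31 and 9.25 in preadipocytes. Dbt stood at 9.07, 8.65 and 8.92 with PPAR gamma siRNA, at 10.31, 10.57 and 10.42 with control siRNA, and at 6.19, 6.57 and 6.01 in preadipocytes. In each of the 3 genes the groups were fully separated, with the knockdown arrays in the middle.

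With PPAR gamma siRNA, Bckdhb fell most (4.10-fold, log2 change -2.03 ± 0.09, adjusted p = 1.72e-08), followed by Dbt (2.93-fold, -1.55 ± 0.15, adjusted p = 8.42e-06) and Bckdha (2.21-fold, -1.15 ± 0.10, adjusted p = 2.55e-06). Between control siRNA adipocytes and preadipocytes Dbt rose 18.1-fold (4.18 ± 0.15, adjusted p = 7.73e-10), Bckdhb 8.23-fold (3.04 ± 0.09, adjusted p = 1.48e-10) and Bckdha 4.79-fold (2.26 ± 0.10, adjusted p = 3.03e-09). The rise of Dbt was exceeded by 0.698% of all genes.

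As estimates, these sizes differed between subunits. The exact test used here cannot fall under 0.05 with 3 arrays against 3, so it cannot decide whether the subunits differ. To compare subunits directly, one subunit's log2 value was subtracted from another's on each array, and the differences were compared between groups by a two-sided exact permutation test. Bckdhb fell by 0.89 more than Bckdha with PPAR gamma siRNA, and rose by 0.78 more in differentiation. Dbt rose by 1.92 more than Bckdha and by 1.14 more than Bckdhb in differentiation. The array differences of the 2 groups were separate in 8 of 9 such comparisons, each with an exact p = 0.1, the smallest that 3 arrays against 3 allow, and adjusted p = 0.113 over the 9. In the remaining one, Bckdha against Bckdhb between PPAR gamma siRNA adipocytes and preadipocytes, they overlapped (difference 0.11, exact p = 0.2). How often other pairs of genes separate in this way was not counted, so the 8 of 9 is description only. After PPAR gamma siRNA the genes of E1 thus stood 2.16-fold (Bckdha) and 2.01-fold (Bckdhb) above preadipocytes, and that of E2 6.17-fold.

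Each amino acid's acyl-CoA ester has its own dehydrogenase: Ivd acts on the leucine product isovaleryl-CoA, Acadsb on that of isoleucine and Acad8 on isobutyryl-CoA from valine. The valine enzyme Acad8 was at 7.93, 7.88 and 7.99 with PPAR gamma siRNA, 9.17, 9.02 and 9.09 with control siRNA, and 7.42, 7.43 and 7.43 in preadipocytes. It fell 2.23-fold with PPAR gamma siRNA (-1.16 ± 0.08, adjusted p = 5.55e-07) and rose 3.17-fold in differentiation (1.66 ± 0.08, adjusted p = 8.39e-09). Most of that gain was gone after the siRNA, with a level 0.51 ± 0.08 above preadipocytes (adjusted p = 0.000433).

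The leucine enzyme Ivd had values of 11.01, 11.10 and 11.07 with PPAR gamma siRNA, 11.40, 11.46 and 11.37 with control siRNA, and 9.15, 9.16 and 9.26 in preadipocytes. The groups were separate, but the siRNA step was small: a 1.27-fold fall (-0.35 ± 0.08, adjusted p = 0.00515) beside a 4.66-fold rise in differentiation (2.22 ± 0.08, adjusted p = 7.38e-10). The other Ivd probe set gave another size. It read 9.62, 9.62 and 9.66 with PPAR gamma siRNA, 10.96, 10.85 and 10.94 with control siRNA, and 7.85, 8.07 and 8.07 in preadipocytes, a 2.44-fold fall with the siRNA (-1.28 ± 0.09, adjusted p = 5.19e-07). Both probe sets show a fall, and the data here do not settle whether it was near 1.27-fold or 2.44-fold.

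The isoleucine enzyme Acadsb had the smallest fall of the 10. It stood at 10.31, 10.18 and 10.29 with PPAR gamma siRNA, 10.57, 10.47 and 10.62 with control siRNA, and 8.88, 9.09 and 9.11 in preadipocytes. The fall was 1.23-fold (-0.30 ± 0.09, adjusted p = 0.0333), and its call was lost under 8 of 18 other settings, with adjusted p from 0.0162 to 0.114 over them, so a change of this size is at the limit of these arrays. Those 8 include a replicate block (adjusted p = 0.0506) and the omission of control siRNA replicate 1 or 3 or of PPAR gamma siRNA replicate 2 or 3 (adjusted p = 0.0610 to 0.114). The rise in differentiation was 2.88-fold (1.53 ± 0.09, adjusted p = 6.49e-08), the smallest of the 10. Its only probe set is of the x type, which may match transcripts of other genes.

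Further down lie 2 carboxylases. Mccc1 encodes the biotin-carrying subunit of methylcrotonyl-CoA carboxylase in the leucine arm. It stood at 11.56, 11.46 and 11.62 with PPAR gamma siRNA, 12.09, 11.97 and 11.94 with control siRNA, and 9.11, 9.24 and 9.08 in preadipocytes. Its fall was 1.37-fold (-0.45 ± 0.09, adjusted p = 0.00174) after a 7.26-fold rise in differentiation (2.86 ± 0.09, adjusted p = 2.20e-10). It remained 5.30-fold above preadipocytes (2.41 ± 0.09, adjusted p = 3.42e-09). Pcca, the corresponding subunit of propionyl-CoA carboxylase, stood at 9.95, 9.86 and 9.97 with PPAR gamma siRNA, 11.12, 11.09 and 11.10 with control siRNA, and 8.82, 8.95 and 8.99 in preadipocytes. It fell 2.26-fold (-1.18 ± 0.08, adjusted p = 5.69e-07) and had risen 4.55-fold in differentiation (2.18 ± 0.08, adjusted p = 1.03e-09). The fall of Mccc1 (95% interval -0.64 to -0.26) was smaller than that of Pcca by its brighter probe set, but the other Mccc1 probe set (-1.02 to -0.56) was nearer to it, and this difference was not tested.

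Aldh6a1 encodes methylmalonate semialdehyde dehydrogenase, which makes propionyl-CoA at the end of the valine arm. Its levels were 10.48, 10.48 and 10.62 with PPAR gamma siRNA, 11.52, 11.57 and 11.69 with control siRNA, and 7.82, 8.14 and 8.35 in preadipocytes. The groups were separate, and preadipocytes had the widest spread (SD 0.27). Aldh6a1 rose 11.3-fold in differentiation (3.49 ± 0.12, adjusted p = 7.46e-10), the second largest rise of the 10, and fell 2.10-fold with PPAR gamma siRNA (-1.07 ± 0.12, adjusted p = 3.83e-05). It stayed 5.36-fold above preadipocytes (2.42 ± 0.12, adjusted p = 6.08e-08).

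**Figure D2:**
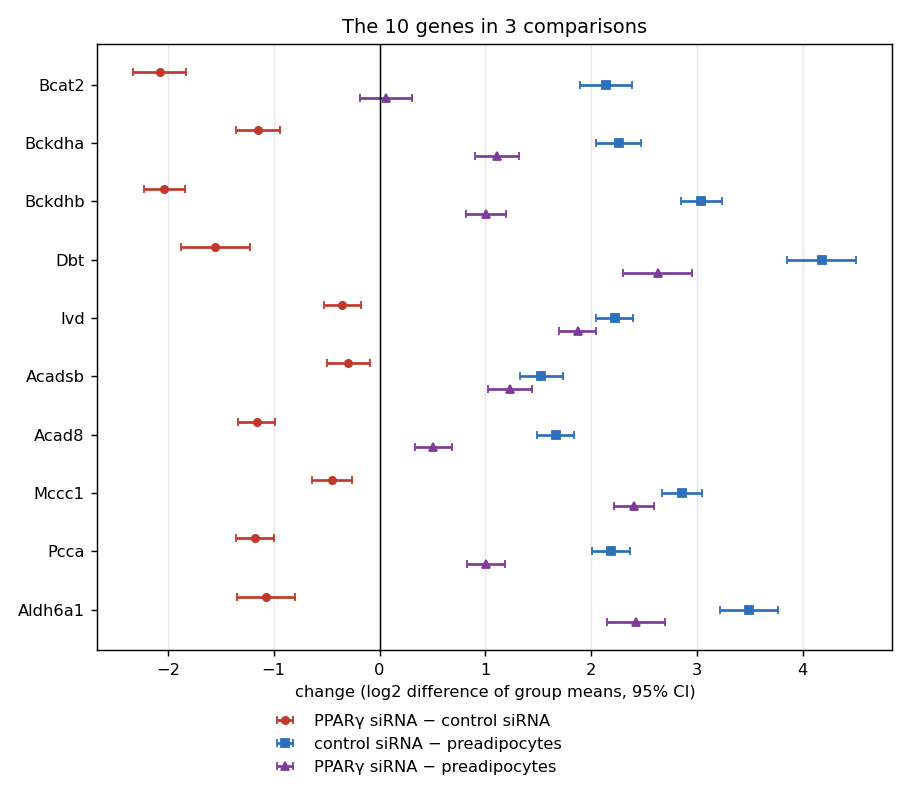
Log2 change (x axis) of each gene with its 95% interval, for PPAR gamma siRNA minus control siRNA (circles), control siRNA minus preadipocytes (squares) and PPAR gamma siRNA minus preadipocytes (triangles). All circles lie below 0 and all squares above 1, and the triangle of Bcat2 alone has an interval that spans 0 (-0.18 to 0.31).

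Ordered by the fall with PPAR gamma siRNA, most neighbours among the 10 genes have overlapping 95% intervals. Bcat2 (-2.32 to -1.83), Bckdhb (-2.23 to -1.84) and Dbt (-1.88 to -1.22) come first. Pcca, Acad8, Bckdha and Aldh6a1 follow, with intervals between -1.36 and -0.80, and that of Dbt overlaps theirs. Mccc1 (-0.64 to -0.26), Ivd (-0.52 to -0.18) and Acadsb (-0.50 to -0.09) come last, and their intervals lie apart from the other 7. This split rests on the brightest probe sets. With its other probe set Ivd would stand among the middle genes. The interval of the other Mccc1 probe set (-1.02 to -0.56) overlaps that of Aldh6a1 (-1.34 to -0.80). Pcca averaged over its probe sets changed by -0.58. The order by the rise in differentiation differed: Dbt, Aldh6a1, Bckdhb and Mccc1 rose most, and Acadsb and Acad8 least.

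**Figure D3:**
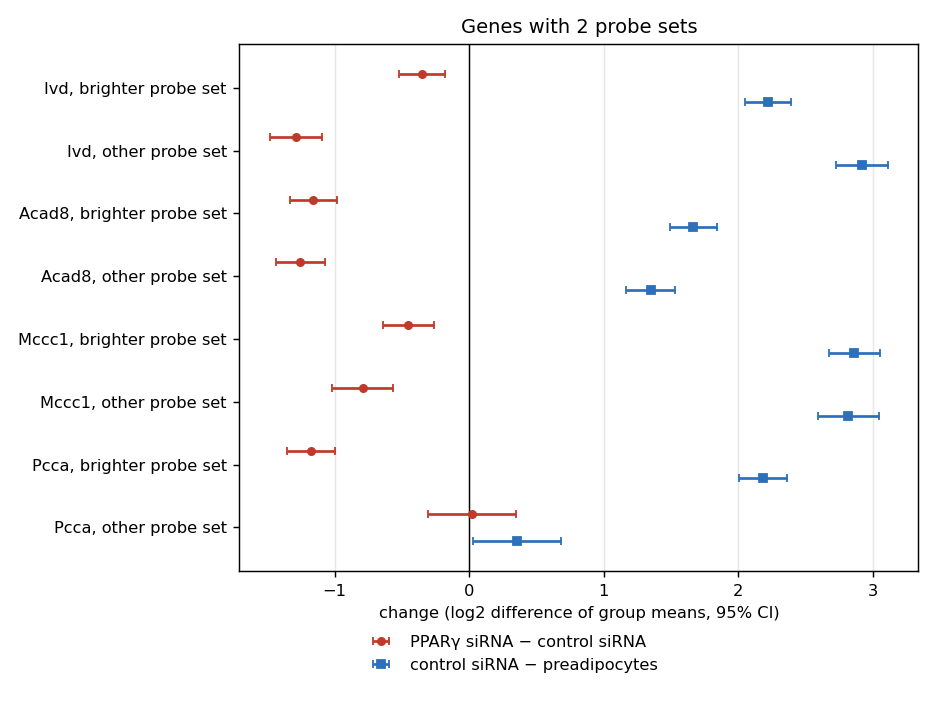
Log2 change (x axis) with 95% interval for both probe sets of the 4 genes that have 2, for PPAR gamma siRNA minus control siRNA (circles) and control siRNA minus preadipocytes (squares). The pairs of Acad8 lie close, those of Ivd (-0.35 and -1.28) and Mccc1 (-0.45 and -0.79) differ in the knockdown comparison, and the other Pcca probe set shows no called change.

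As for the other probe sets, that of Acad8 fell by 1.25 and that of Mccc1 by 0.79 with PPAR gamma siRNA (adjusted p = 4.25e-07 and 9.96e-05). The other Pcca probe set, of the x type, was dim, with values from 4.71 to 5.25 in PPAR gamma siRNA adipocytes, 4.79 to 5.17 in control siRNA adipocytes and 4.44 to 4.69 in preadipocytes. It passed no test (adjusted p = 0.947 for the siRNAs). With both probe sets averaged, Pcca fell by 0.58 with PPAR gamma siRNA and rose by 1.27 in differentiation, each still called. In the other Acad8 probe set, PPAR gamma siRNA adipocytes differed from preadipocytes by 0.09 ± 0.08 (adjusted p = 0.445), where the brighter one gave a called 0.51 and their average a called 0.30.

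A list of further genes of the pathway gave 27 that were analysed here. With PPAR gamma siRNA, 21 of the 27 fell (median -0.78), 3 rose, and Bcat1, Bckdk and Mmaa did not pass, beside 16.1% of all genes lower and 19.9% higher (median -0.01). In differentiation 23 rose (median 1.97), 3 fell, and Bckdk did not pass, beside 27.1% of all genes higher and 24.7% lower (median 0.09). The shared E3 subunit of the complex, Dld, fell 4.12-fold with the siRNA (-2.04 ± 0.09, adjusted p = 2.10e-08) and differed from preadipocytes by 0.20 ± 0.09 (adjusted p = 0.123). Dld also serves the pyruvate and 2-oxoglutarate dehydrogenases.

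Control of the complex moved less evenly. Bckdk, the kinase that switches the complex off, was at 8.76, 9.16 and 9.06 with PPAR gamma siRNA, 9.09, 8.99 and 8.87 with control siRNA, and 8.99, 8.90 and 8.80 in preadipocytes. All 3 groups overlapped, and no comparison passed (adjusted p = 0.961, 0.562 and 0.566). Ppm1k, the phosphatase that switches it on, fell 1.45-fold with PPAR gamma siRNA (-0.53 ± 0.12, adjusted p = 0.00408) and rose 3.94-fold in differentiation (1.98 ± 0.12, adjusted p = 4.81e-08). Klf15, a transcription factor known in muscle and liver as a regulator of amino acid breakdown, fell by 1.47 ± 0.13 with the siRNA (adjusted p = 4.04e-06) and rose by 7.35 ± 0.13 in differentiation (adjusted p = 4.13e-12).

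**Figure D4:**
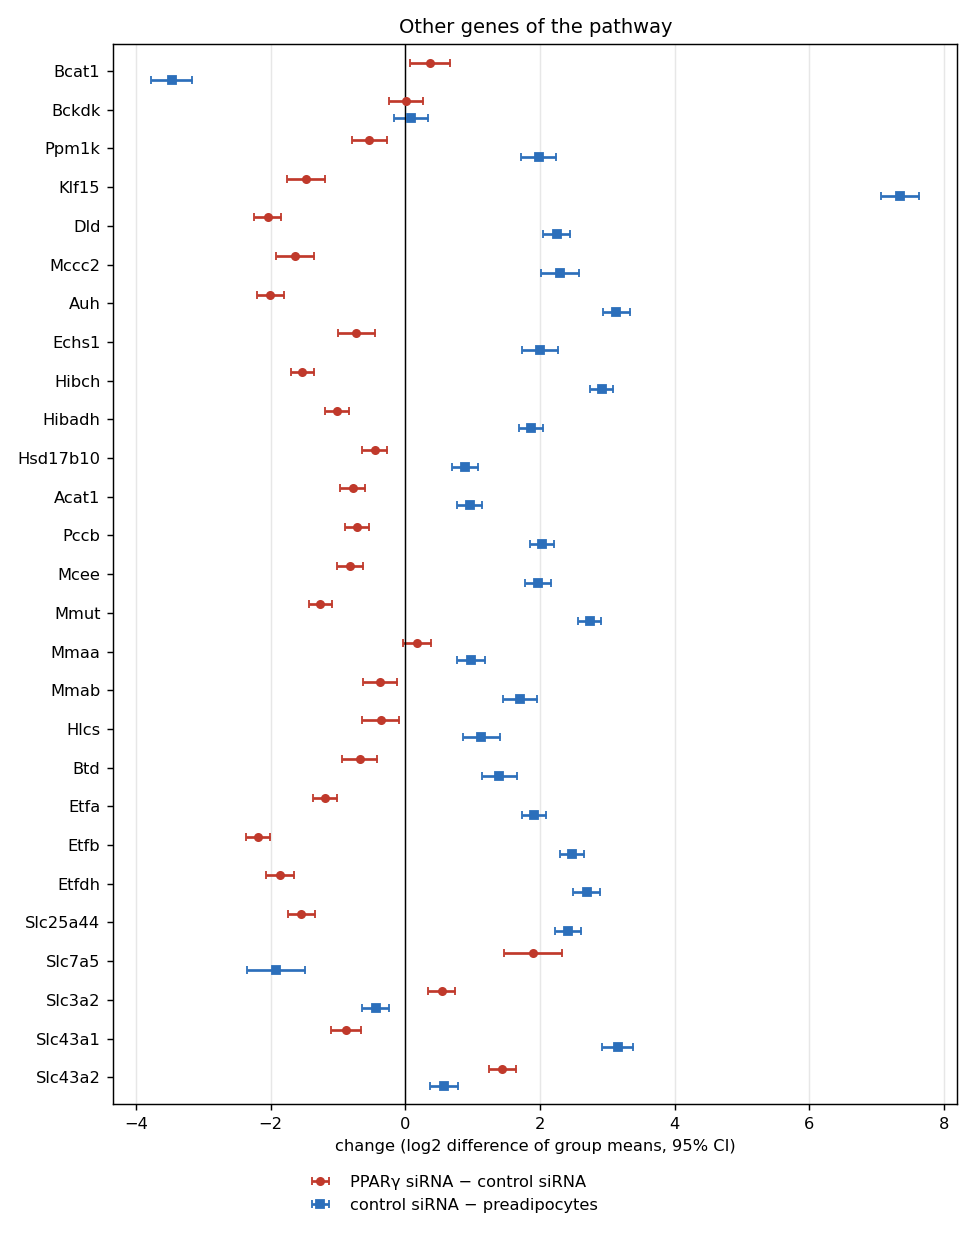
Log2 change (x axis) with 95% interval of the 27 other pathway genes, for PPAR gamma siRNA minus control siRNA (circles) and control siRNA minus preadipocytes (squares). Most circles lie left of 0 and most squares right of it. Bckdk has both near 0 (0.01 and 0.09), Bcat1, Slc7a5 and Slc3a2 fell in differentiation, and Slc43a2 rose in both by its brightest probe set.

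By their brightest probe sets, the partner subunits of the carboxylases fell by different amounts, and these differences were not tested. Mccc2, the partner of Mccc1, fell 3.11-fold with PPAR gamma siRNA (-1.64 ± 0.13, adjusted p = 1.77e-06), where Mccc1 fell 1.37-fold. Pccb, the partner of Pcca, fell 1.65-fold (-0.72 ± 0.08, adjusted p = 3.22e-05), where Pcca fell 2.26-fold. The order of these depends on the probe set rule, since Pcca averaged over its probe sets changed by -0.58, less than Pccb. The other Mccc1 probe set changed by -0.79, nearer to Mccc2. In the leucine arm the hydratase gene Auh fell 4.02-fold (-2.01 ± 0.09, adjusted p = 2.44e-08) by its brightest probe set. Its 5 other probe sets, with group means of 3.62 to 5.41, passed no test with the siRNA (-0.23 to 0.38), and the mean over its probe sets was -0.30. Averaging probe sets in the same way gave -1.05 for Dld, -0.97 for Etfdh and -0.81 for Slc25a44, each still called. The 5 genes Echs1, Hibch, Hibadh, Hsd17b10 and Acat1 of the valine and isoleucine arms all fell (-1.53 to -0.45) and all rose in differentiation (0.89 to 2.92). Of 5 genes that turn propionyl-CoA into succinyl-CoA or supply its cobalamin cofactor, 4 fell, and Mmaa did not pass (0.17 ± 0.09, adjusted p = 0.244).

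The acyl-CoA dehydrogenases hand their electrons to a flavoprotein and its oxidoreductase. Its subunit genes Etfa and Etfb and the oxidoreductase gene Etfdh fell by 1.19, 2.19 and 1.86 with PPAR gamma siRNA. All 3 rose in differentiation, by 1.91 to 2.69. The biotin genes Hlcs, which attaches biotin to the carboxylases, and Btd, which recycles it, changed by -0.37 ± 0.13 and -0.68 ± 0.12 (adjusted p = 0.0489 and 0.00085). The Hlcs call was lost in 11 of 19 other settings, with adjusted p from 0.00922 to 0.174, among them the omission of any 1 of PPAR gamma siRNA replicates 1 and 3, control siRNA replicates 1 and 2 or any preadipocyte replicate. That of Mmab, a cobalamin gene at -0.38, was lost in 5 of 19 (adjusted p 0.000993 to 0.106), among them without control siRNA replicate 1 or 2 or PPAR gamma siRNA replicate 1.

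Bcat1, the cytosolic transaminase, had the opposite profile to Bcat2 in differentiation. It read 4.91, 5.32 and 5.32 with PPAR gamma siRNA, 4.96, 4.58 and 4.90 with control siRNA, and 8.35, 8.36 and 8.15 in preadipocytes. Control siRNA adipocytes were 11.1-fold below preadipocytes (-3.47 ± 0.14, adjusted p = 1.74e-09). PPAR gamma siRNA adipocytes remained 8.59-fold below preadipocytes (-3.10 ± 0.14, adjusted p = 1.77e-08) and overlapped with control siRNA adipocytes (0.37 ± 0.14, adjusted p = 0.0708, which passed in 3 of 19 other settings, at 0.0134 without PPAR gamma siRNA replicate 1). Both adipocyte groups lie near the array medians of 4.82 to 4.89, so the fold may be understated. A second Bcat1 probe set gave -2.05 ± 0.16 in differentiation, and the third, dim in all groups, did not pass. With the probe sets averaged, the change of Bcat1 between control siRNA adipocytes and preadipocytes was -1.84.

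All 3 rises with PPAR gamma siRNA among these 27 genes were of transporters. Slc7a5, the large neutral amino acid transporter at the cell surface, stood at 9.61, 9.34 and 9.69 with PPAR gamma siRNA, 7.86, 7.85 and 7.25 with control siRNA, and 9.93, 9.59 and 9.22 in preadipocytes. It rose 3.71-fold (1.89 ± 0.20, adjusted p = 1.61e-05), and differed from preadipocytes by -0.03 ± 0.20 (adjusted p = 0.926). Its partner chain gene Slc3a2 rose by 0.54 ± 0.09 (adjusted p = 0.000712). Slc43a2, another transporter of neutral amino acids, averaged 8.51 ± 0.12 with PPAR gamma siRNA, 7.07 ± 0.10 with control siRNA, and 6.49 ± 0.07 in preadipocytes (SD, n = 3 each), and the knockdown arrays were above both other groups. It rose 2.71-fold over control siRNA (1.44 ± 0.09, adjusted p = 3.50e-07) and was 4.04-fold above preadipocytes (adjusted p = 2.64e-08). Its small rise in differentiation (0.58 ± 0.09, adjusted p = 0.000308) was not seen in its 2 other probe sets (-0.10 and -0.11), and its call was lost with probe sets averaged (0.12, adjusted p = 0.264) or with the Actb difference as a covariate (0.33, adjusted p = 0.0909), while both of these also rose with the siRNA (1.60 and 0.54).

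The other transporters followed the enzymes. Slc25a44, the mitochondrial carrier of branched-chain amino acids, read 8.33 on all 3 PPAR gamma siRNA arrays, 9.91, 9.82 and 9.91 with control siRNA, and 7.57, 7.53 and 7.30 in preadipocytes. It fell 2.92-fold with the siRNA (-1.55 ± 0.09, adjusted p = 1.57e-07). Slc43a1 fell 1.84-fold (-0.88 ± 0.10, adjusted p = 4.13e-05) and rose 8.88-fold in differentiation.

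**Figure D5:**
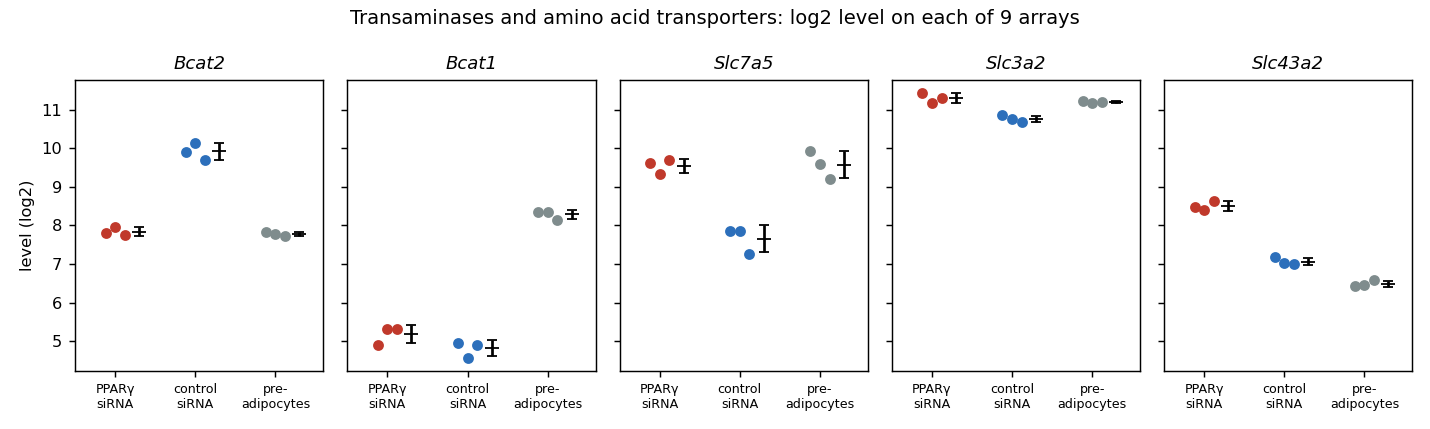
Log2 level (y axis) on the 3 arrays of each group (x axis), with the mean ± SD beside the points, for both transaminases and 3 surface transporter genes. Bcat2 is high in control siRNA adipocytes alone, Bcat1 in preadipocytes alone, Slc7a5 is low in control siRNA adipocytes alone, and Slc43a2 is highest with PPAR gamma siRNA.

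Related enzymes outside the pathway moved the same way. Of 17 genes, 16 fell with PPAR gamma siRNA (median -1.47) and all 17 rose in differentiation (median 2.44). The shares of all genes were again 16.1% lower and 27.1% higher, with medians of -0.01 and 0.09, here and for the mitochondrial genes below. Among the other acyl-CoA dehydrogenases, 7 of 8 fell, each at least 2-fold, including Acadvl of fatty acid oxidation (-2.07 ± 0.08), and Acad10 did not pass (-0.25 ± 0.09, adjusted p = 0.0774). The 6 subunit genes of the pyruvate and 2-oxoglutarate dehydrogenases fell by 0.94 to 2.47. These medians stand beside the -1.15 of the members, whose difference from other mitochondrial enzymes was not tested. Of general mitochondrial genes, 7 of 11 were lower and 1 was higher with PPAR gamma siRNA (median -0.56), and 8 of 11 were higher and 1 was lower in differentiation (median 0.65).

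The genes whose profile lay closest to the mean profile of the members were Mdh1, Rb1, Mmut, Hint3 and Cavin2. Likeness was the root mean square difference of the 9 array values, each gene centred on its own mean, and it was 0.080 to 0.093 on the log2 scale for these 5. Averaged over its probe sets, Mdh1 fell by 0.53 with PPAR gamma siRNA, where its brightest probe set gave 1.17. Among them Mmut, the methylmalonyl-CoA mutase of the propionate arm, fell 2.41-fold with PPAR gamma siRNA and rose 6.68-fold in differentiation. Within the members, Bckdha (0.159) and Pcca (0.190) lay closest to the mean profile, and Dbt (0.703) and Bcat2 (0.583) farthest. The shares of all genes lying closer to that profile were 0.121%, 0.286%, 8.39% and 5.16%, in the same order.

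Fat cell markers averaged 9.34 to 9.42 per array with PPAR gamma siRNA, 11.92 to 12.01 with control siRNA, and 4.50 to 4.56 in preadipocytes (7 genes, summed levels 65.4 to 66.0, 83.4 to 84.1, and 31.5 to 31.9), with 6 of 7 lower after the siRNA. Preadipocyte or fibroblast markers averaged 9.95 to 10.43 with PPAR gamma siRNA, 8.49 to 8.79 with control siRNA, and 11.18 to 11.31 in preadipocytes (7 genes, summed levels 69.6 to 73.0, 59.4 to 61.5, and 78.2 to 79.2), with 6 of 7 higher after the siRNA and none at 0. Fewer fat cells and less RNA per fat cell cannot be told apart in such bulk samples, and the part of either in the falls was not tested. Of 6 macrophage markers, 1 (Cd68, 1.20 ± 0.22, adjusted p = 0.00125) rose with PPAR gamma siRNA, and 2 rose in differentiation, with sums of 28.1 to 29.9, 27.5 to 27.9, and 25.4 to 25.6 in PPAR gamma siRNA adipocytes, control siRNA adipocytes and preadipocytes. Of 5 skeletal muscle markers, 1 (Des, -0.63 ± 0.09, adjusted p = 0.000153) fell with PPAR gamma siRNA, and 3 rose and 1 fell in differentiation, with Des up by 2.41 and sums of 25.2 to 26.3, 26.1 to 26.7, and 22.6 to 23.2 in the same order of groups. With PPAR gamma siRNA the lowest adjusted p was 0.54 among 5 endothelial markers (Cdh5) and 0.119 among 3 liver markers (Alb), while 1 endothelial and 2 liver markers rose in differentiation. Endothelial sums were 20.0 to 20.9, 19.8 to 20.5, and 18.9 to 19.9, and liver sums 15.2 to 15.6, 15.4 to 16.1, and 14.6 to 14.9. Within these lists Ptprc, Adgre1, Pecam1, Cdh5 and Alb had group means between 3.24 and 4.14, below the array medians of 4.82 to 4.89. Those of Myod1 and Myog were between 3.65 and 4.22. These genes are only a part of their lists. Whole lists averaged 4.23 to 4.99 per array for macrophage, 3.79 to 4.19 for endothelium, 4.53 to 5.34 for skeletal muscle and 4.85 to 5.37 for liver. The macrophage, muscle and liver lists thus also hold brighter genes. No list's part in the results was tested.

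As a measure of RNA integrity, the Actb probe set at the 3′ end exceeded that at the 5′ end by 0.54 to 1.25 in PPAR gamma siRNA adipocytes, 0.91 to 1.30 in control siRNA adipocytes and 0.23 to 0.36 in preadipocytes. With it as a covariate the members' median change was -1.11 for PPAR gamma siRNA against control siRNA, with 9 of 10 lower, and 2.24 for differentiation, with 10 of 10 higher. Without the array of highest difference in each adipocyte group (PPAR gamma siRNA replicate 3 and control siRNA replicate 1) these medians were -1.15 and 2.22. Between control siRNA adipocytes and preadipocytes the Actb differences did not overlap, so there the covariate cannot separate RNA integrity from group. The spike-in control BioB (5′ probe set) read 7.95 to 8.49 in PPAR gamma siRNA adipocytes, 8.44 to 8.73 in control siRNA adipocytes and 7.08 to 7.60 in preadipocytes, the order of groups seen for most members, and its part in the results was not tested.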

How the data were processed

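The authors deposited log2 probe set summaries, whose array medians lay close together. The log2 scale was read from the values, which ran from 2.41 to 14.59, and array medians from 4.82 to 4.89. Per the submitters' processing notes, MAS5, RMA and affy 1.16.0 were used, with no role or order given. The summaries were used as deposited: 64 control probe sets were left out and 45037 tested with limma 3.58.1 in R 4.3.3, in 1 fit over 9 arrays (group means, moderated variance). Tests were two-sided, and 95% intervals come from the same fit. Probe sets were named from the platform annotation, with symbols updated by gene ID, and a gene was its brightest probe set with 1 symbol. The fit was tested on simulated data with known changes. The members, gene lists, named genes (all members, the listed pathway and related genes, and the 5 nearest profiles) and alternatives were chosen with earlier results of these data known. The promoter search was added after the array values were seen. Same-numbered replicates did not deviate together (correlations -0.19 to 0.17), so no pairing was used. Alternatives were other scalings, a dim filter, fits of 2 groups, variance models, probe set rules, a replicate block, Actb as a covariate and the omission of arrays.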

Additional observations from a re-analysis of the deposited data

How the results depend on the processing

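Under 19 other settings, 9 of which left out 1 array, the 10 genes kept their direction and their side of the threshold in 559 of 567 repeats over the 3 comparisons. The other 8 were the call of Acadsb with PPAR gamma siRNA, at -0.23 with quantile normalisation, -0.30 with a replicate block, -0.27 with the Actb covariate and -0.30 on omitting both arrays of highest Actb difference, and -0.25 to -0.31 in the 4 single omissions that lost it. The number of lower members was 9 or 10 throughout. It was 9 with the replicate block, which changed no other call of a member and left the members' median at -1.15, and the replicate numbers are not known to pair the arrays. The members' median ranged from -1.17 to -1.09 with PPAR gamma siRNA, and from 2.21 to 2.41 in differentiation. It was 2.41 when a gene was averaged over its probe sets, which draws in the second probe set of 4 members. Without x and s probe sets Acadsb had no value, so 9 members remained. The fall of Ivd ranged from -0.82 (mean of its probe sets) to -0.29, and that of Pcca from -1.20 to -0.58 (mean of its probe sets), always called. With quantile normalisation the median of the members was -1.09. Array signal near the background limits Bcat1 in adipocytes and the second Pcca probe set.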
